A study of Homo sapiens with 18 samples.

Results

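Jiyoye is an established Burkitt lymphoma cell line that carries Epstein-Barr virus (EBV), and the data described here are the messenger RNA levels of this line after transduction with a hairpin against the transcription factor FOXO3. All 16787 genes in the authors' deposited table for Jiyoye were taken, of 17561 genes listed in the tables of any of the 3 lines of the study, and they rest on 6 of its 18 libraries. In 1 group of 3 libraries the cells received a short hairpin RNA (shRNA) against FOXO3, and in the other group of 3 a scrambled control hairpin, each delivered by the lentiviral vector pRSI12-U6-shUbiC-TagRFP, which also codes for a red fluorescent protein. Infected cells of both groups were sorted on day 4 after transduction, having been grown in RPMI1640 medium with serum. The same pair of groups was made in BL-41, which is EBV-negative, and in Namalwa, which is EBV-positive, with 3 libraries each, and those lines serve here only to show where Jiyoye differed.

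FOXO3 belongs to the forkhead box O family, which binds DNA and drives genes of cell cycle arrest, cell death, catabolism and defence against oxidants. Growth factor and B cell receptor signals act through the kinases PI3K and AKT, and AKT phosphorylates FOXO proteins and keeps them out of the nucleus. Burkitt lymphoma is a germinal centre B cell tumour driven by the oncogene MYC, and in germinal centre B cells the activity of PI3K and of FOXO proteins shapes proliferation, antigen presentation and the passage to plasma cells. EBV adds viral proteins that can mimic CD40 and B cell receptor signals, and host cells sense the virus through interferon pathways.

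The labels call the 3 libraries of a group triplicates without stating whether each had its own culture. The p-values therefore reflect the spread among these libraries alone, which may be technical. A single line with a single named hairpin target also limits what the comparison can stand for. The authors deposited 1 normalized value per group and no value per library. The ratio of the 2 group values equals the authors' fold change, which is moderated towards 0, so neither value is a plain mean and no SD is given. Each standard error (SE) was recovered from the authors' log2 fold change and p. A gene was called at a DESeq2 adjusted p under 0.05, and a log2 fold change is that of FOXO3 shRNA over scrambled, so that 1 is a doubling. Relative library sizes, estimated from 718 genes with a single read, ran from 16920503 to 18533917 in the scrambled group and from 16541329 to 16870341 in the FOXO3 shRNA group. In bulk RNA, fewer cells of a type and less RNA per cell cannot be told apart. Near-identical gene copies and overlapping genes may share reads, since the sources used here do not say how the counting treated strand.

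The cell type on the labels was checked against marker lists in the authors' deposited table. Of 14 B cell and Burkitt lymphoma markers all were measured, and 13 had a mean of the 2 group values of at least 100. Of 14 T and NK cell markers, 9 had a mean under 10, and the highest mean, 1060.4, belonged to PRF1, the pore-forming protein perforin. The T and NK list summed to 1124 in the scrambled group and 1530 in the FOXO3 shRNA group, and PRF1 alone was called, rising from 863 to 1258 (log2 fold change 0.54, SE 0.11, DESeq2 adjusted p = 3.03e-05) in the authors' deposited table. Myeloid markers summed to 348 in the scrambled group and 381 in the FOXO3 shRNA group. Epithelial and fibroblast markers summed to 3458 and 2194, and most of that sum was KRT8, a keratin that fell from 2978 to 1823 (log2 fold change -0.71, SE 0.18, DESeq2 adjusted p = 0.00108). CD3D, which defines T cells, stood at 4.3 and 6.5, and CD3E at 34.2 and 60.1 (not called). CD14 alone was called among the myeloid markers, rising from 5.7 to 14.2 (DESeq2 adjusted p = 0.0447). Besides KRT8, PDGFRB fell from 97.0 to 51.5 (DESeq2 adjusted p = 0.00556) in the authors' deposited table. The part of these other markers in the results was not tested, and viral transcripts were not analysed here.

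FOXO3 itself (NCBI Gene 2309, chr6:108559825-108684774 in GRCh38.p14), the target of the hairpin, stood at 471 in the scrambled group and 384 in the FOXO3 shRNA group in the authors' deposited table. The log2 fold change was -0.30 (SE 0.15) with a DESeq2 adjusted p = 0.187, so the targeted messenger RNA did not pass the test in Jiyoye. Its adjusted p ran from 0.133 to 1 over the alternative adjustments. In Namalwa the same hairpin target fell by 1.09 on the log2 scale (DESeq2 adjusted p = 2.49e-09, the authors' deposited table) and in BL-41 by 0.79 (adjusted p = 3.15e-07). The log2 fold change of FOXO3 in Jiyoye lay 0.80 above that in Namalwa (adjusted p = 0.0174 in a z test of the difference across all genes, 0.225 with every SE made 25% larger), and its difference from BL-41 did not pass (adjusted p = 0.136). The direction on the label is thus seen in the value but not past the test, and each result below is that of the libraries labelled FOXO3 shRNA. None of the other FOXO genes was called, nor did any reach an unadjusted p under 0.05 (0 genes): the log2 fold change was 0.22 (SE 0.12) for FOXO1, -0.31 (SE 0.16) for FOXO4 and 0.33 (SE 0.19) for FOXO6 in the authors' deposited table.

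In the Jiyoye comparison 2919 of 16787 genes passed the DESeq2 test (17.4%), of which 1458 rose (8.69%) and 1461 fell (8.7%). Most changes were modest. The median size of a called change was 0.60 on the log2 scale, and 457 called genes changed by at least 1, with 220 up and 237 down. The median log2 fold change over all genes was 0.01, and the quartiles were -0.23 and 0.24. Power depended on level: among the 10122 genes with a mean of at least 100, 25.5% were called (12.7% up and 12.8% down), while 340 of the called genes had a lower mean and 21 a mean under 10. The median recovered SE was 0.149 for the genes at or above that mean and 0.452 for those under 10. With the same threshold 28.7% of 16001 genes were called in BL-41 (14.5% up, 14.2% down) and 6.41% of 15365 in Namalwa (2.6% up, 3.81% down).

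**Figure D1:**
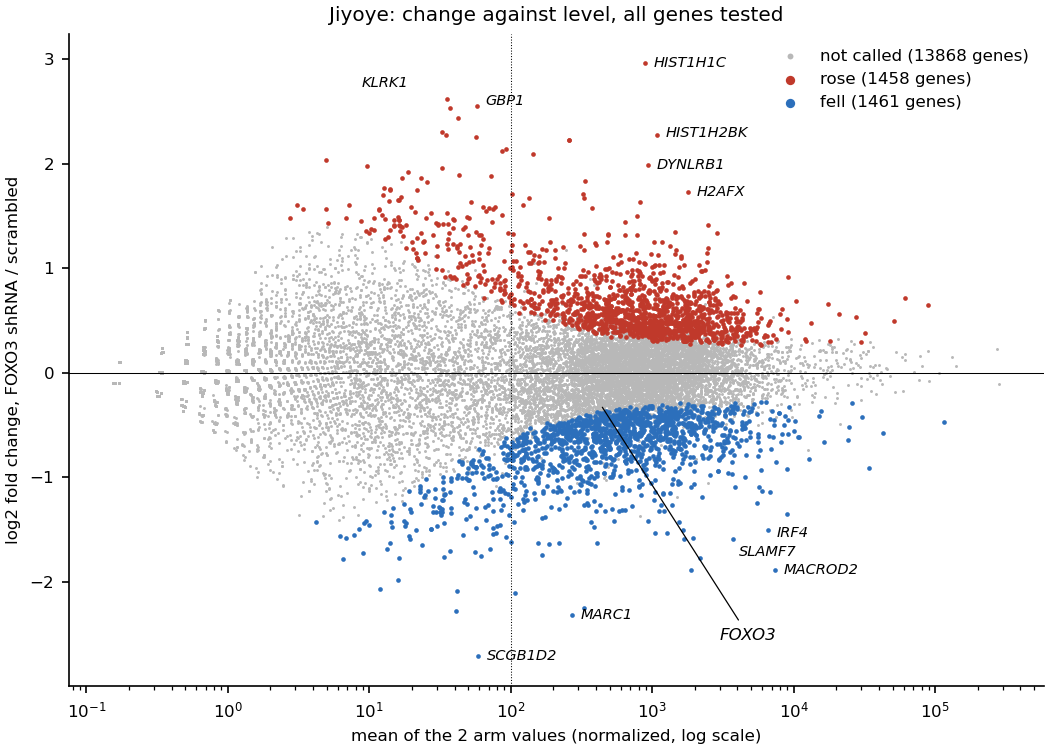
Each point is 1 of 16787 genes of the Jiyoye table, with the mean of the 2 group values on a log axis and the log2 fold change of FOXO3 shRNA over scrambled on the other axis. Red points rose, blue points fell, grey points were not called and the dotted line marks a mean of 100. FOXO3 lies at -0.30 among the grey points, HIST1H1C is the highest called gene and SCGB1D2 the lowest.

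Histone genes led the rises. The 12 largest called rises among genes with a mean of at least 100 ranged in DESeq2 adjusted p from 4.11e-76 to 4e-10. HIST1H1C, a linker histone (chr6:26055740-26056470), stood at 201 with the scrambled hairpin and 1563 with FOXO3 shRNA in the authors' deposited table. Its log2 fold change of 2.96 (SE 0.16) was the largest rise in Jiyoye. HIST1H2BK, a core histone of the H2B class, rose from 372 to 1797 in the authors' deposited table (log2 fold change 2.27, SE 0.17). HIST2H2AA3 and HIST2H2AA4 are near-identical H2A copies with the same value, from 91.5 to 427 (2.22, SE 0.26), so their split is uncertain. HIST1H2BD rose from 153 to 499 (1.70, SE 0.24), and H2AFX, the H2A variant that is phosphorylated at DNA breaks, from 824 to 2738 (1.73, SE 0.18).

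The other leading rises were not histones. DYNLRB1, a light chain of the dynein motor, rose from 376 to 1488 in the authors' deposited table (log2 fold change 1.99, SE 0.15). EPHX1, the microsomal epoxide hydrolase, went from 54.2 to 231 (2.09, SE 0.25). HHEX, a homeobox repressor, rose from 47.8 to 156 (1.71, SE 0.23). TMEM86B, a lysoplasmalogenase, and SLC12A7, a potassium-chloride cotransporter, both rose by 1.67 in the authors' deposited table. WSCD2 rose from 146 to 521 (1.83, SE 0.20). Of these 12 rises, 10 were also called up in BL-41, 8 in Namalwa and 8 in both.

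The 12 largest falls covered unrelated functions. MARC1, a mitochondrial reductase, went from 451 to 90.9 in the authors' deposited table, a log2 fold change of -2.31 (SE 0.21, DESeq2 adjusted p = 1.03e-24). C2orf88, a small anchoring protein for protein kinase A, fell from 543 to 114 (-2.25, SE 0.23), and FHL2, a LIM domain adaptor, from 174 to 40.6 (-2.10, SE 0.28). SNRPB, which codes for the Sm proteins B and B' of the spliceosome, fell from 2956 to 799.7 in the authors' deposited table (-1.89, SE 0.17). MACROD2, which removes ADP-ribose from proteins, fell from 11508 to 3127 (-1.88, SE 0.21), and DUSP11, an RNA phosphatase, from 3382 to 991 (-1.77, SE 0.19). The remaining 6 were PTPRM (-1.74), SLC4A5 (-1.63), TMEM218 (-1.63), MEOX1 (-1.62), ABRAXAS1 (-1.62) and SLAMF7 (-1.59) in the authors' deposited table. Of the 12 falls, 4 were also called down in BL-41, 3 in Namalwa and 3 in both, and these 3 were SNRPB, TMEM218 and ABRAXAS1. C2orf88, for example, had a log2 fold change of -0.11 in BL-41 and -0.17 in Namalwa, and the difference of Jiyoye from each passed the z test (adjusted p = 1.46e-05 and 8.44e-10).

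The 42 gene lists covering the pathways of B cells, growth and stress held 1357 different genes. Each counted once, 1342 of them were measured and 295 were called, 158 up and 137 down. Lists hold mainly genes of higher level, so the shares of 12.7% up and 12.8% down among genes with a mean of at least 100 stand beside those over all genes. In the counts of single lists below, a gene in several lists counts in each.

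**Figure D2:**
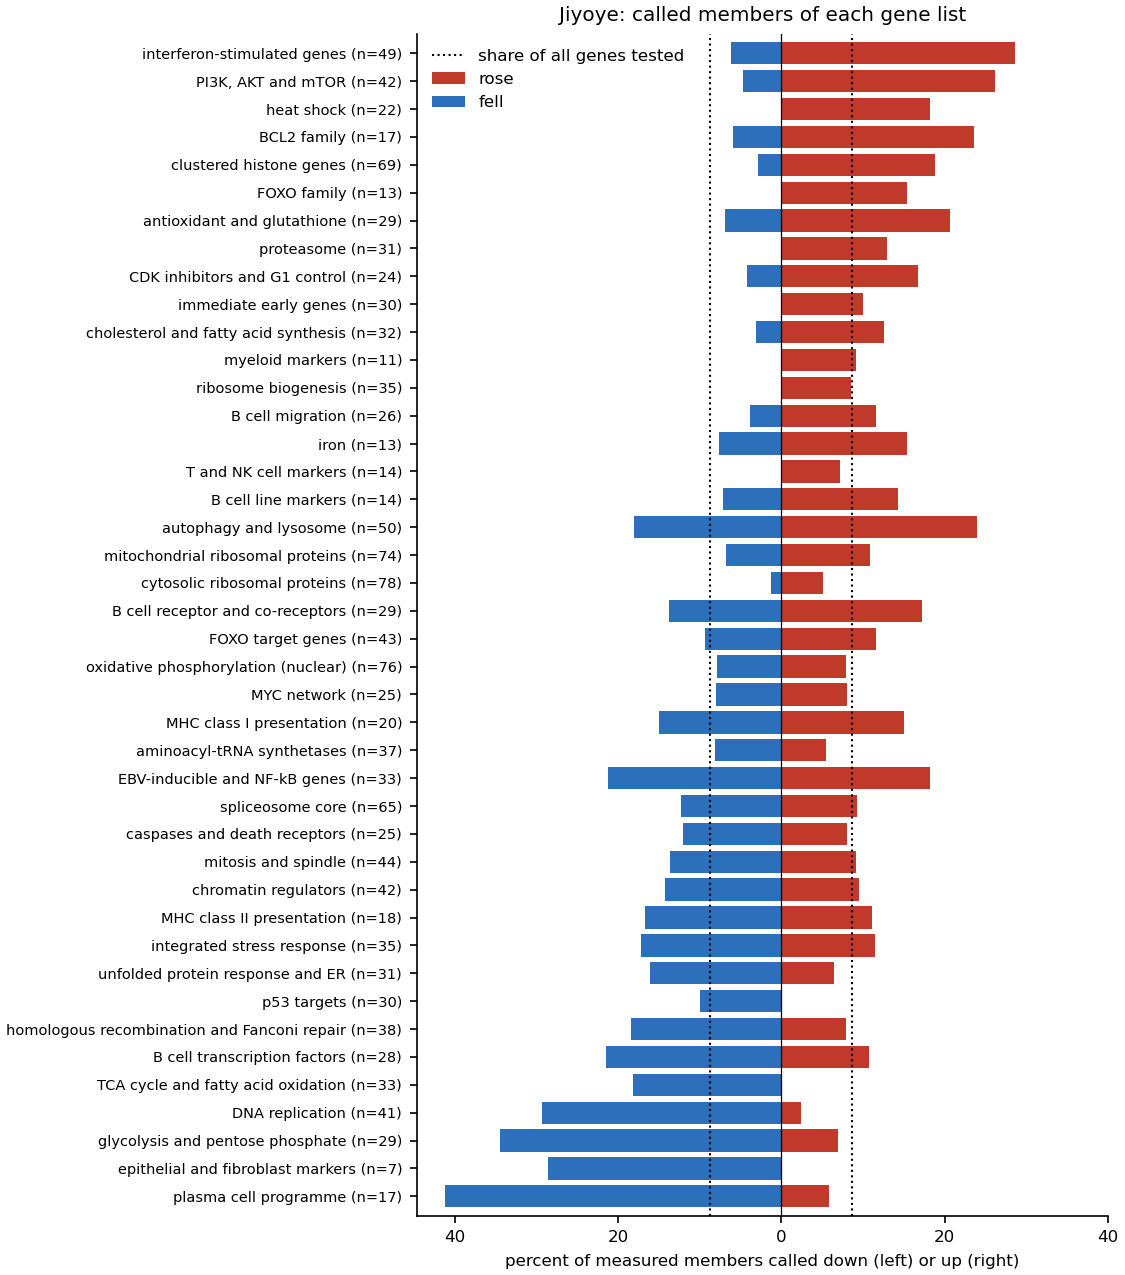
Bars give the percent of measured members of each list called down (blue, left) or up (red, right) in Jiyoye, with the number measured in brackets, and dotted lines the shares over all genes tested, 8.7% down and 8.69% up. Interferon-stimulated genes stand at the top with 14 of 49 up, and the plasma cell list at the bottom with 7 of 17 down.

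Of the clustered histone genes and their 3' end processing factors, 69 were measured, 13 rose, 2 fell and the median log2 fold change was 0.31, beside 0.01 over all genes. Without the 6 processing factors, 12 of 63 histone genes rose (19.0%, beside 8.69% of all genes) and none fell by DESeq2's test. At an unadjusted p under 0.05, 0 were below 0, and the median was 0.37. Only 7 histone genes had a mean of at least 100, and 6 of them rose. Replication-dependent histone transcripts mostly lack a poly(A) tail, and the libraries were made by oligo-dT enrichment; the part of this in the values was not tested. By class, 6 of 17 H2B genes, 4 of 16 H2A genes, 1 of 5 H1 genes and 1 of 13 H4 genes rose, while none of 12 H3 genes passed DESeq2's test (at an unadjusted p under 0.05, 2 were above 0 and 0 below). HIST2H2AA3 and HIST2H2AA4, which have the same value, count as 2 genes in these histone counts and among the 12 largest rises. The H3 genes ran from -0.48 to 0.81 in the authors' deposited table. LSM10, a subunit of the histone pre-mRNA processing complex, rose by 0.48 in the authors' deposited table. Its partner LSM11 and NPAT, the activator of histone gene transcription in S phase, fell by 0.47 and 0.43.

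HIST1H2BK and HIST1H2BD rose less in Jiyoye than in both other lines. HIST1H2BK changed by 2.27 in Jiyoye, 3.97 in BL-41 and 4.01 in Namalwa in the authors' deposited table, with adjusted p = 7.87e-11 and 8.69e-13 for the differences in the z test. HIST1H2BD changed by 1.70, 3.92 and 2.81 in the same order, and its difference from Namalwa was close to the threshold (adjusted p = 0.0447). HIST1H1C changed by 4.72 in BL-41 and 2.70 in Namalwa, so its rise in Jiyoye lay below that in BL-41 (adjusted p = 1.16e-13) and its difference from Namalwa did not pass (adjusted p = 0.89). In the whole list the log2 fold change in Jiyoye was lower than in BL-41 for 7 members and than in Namalwa for 3 by that test.

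Interferon-stimulated genes, which cells switch on in response to interferons, showed 14 of 49 measured members up (28.6%) and 3 down. The median log2 fold change was 0.26. Among the 30 members with a mean of at least 100, 9 rose and the median was 0.10. Of the 7 transcription factors on the list, 4 rose and 1 fell. IRF9 rose from 576 to 1186 in the authors' deposited table (log2 fold change 1.04, SE 0.14, DESeq2 adjusted p = 3.07e-12). IRF1 went from 833 to 1283 (0.62) and IRF7 from 271 to 421 (0.64). STAT2, a partner of IRF9 in the factor that binds the interferon-stimulated response element, fell from 1914 to 1371 (-0.48, SE 0.13, adjusted p = 0.00247) in the authors' deposited table. Members of 1 complex thus moved in opposite directions.

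The effectors and sensors were also split. EIF2AK2, the kinase PKR that senses double-stranded RNA, rose from 467 to 990.5 in the authors' deposited table (log2 fold change 1.09, SE 0.15, DESeq2 adjusted p = 1.39e-10). DDX58, which codes for the RNA sensor RIG-I, rose from 156 to 231 (0.57). LGALS3BP, a secreted galectin ligand, rose from 187 to 434 (1.21, SE 0.19), and PARP9 and DTX3L, which form an ADP-ribosylating complex, by 0.90 and 0.57, as listed in the authors' deposited table. XAF1 rose from 37.1 to 86.3 (1.22) and IFITM2 from 23.5 to 55.1 (1.23). IFI27 rose from a low 6.6 to 20.7 (1.65, SE 0.53). MX2 fell from 133 to 71.4 (-0.90, SE 0.27) and TRIM22 from 461 to 300.2 (-0.62, SE 0.19) in the authors' deposited table. The classical induced genes ISG15, IFIT1 and IFI44L stood at log2 fold changes of 0.40, 0.54 and 1.39, as listed in the authors' deposited table and were not called.

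Guanylate-binding proteins, interferon-induced GTPases that act against microbes inside cells, rose as a neighbourhood. This family was picked out after its values were seen, so its count is a description only. Of 6 family members measured 5 rose, beside 8.69% of all genes, and 2 of the 6 had a mean of at least 100. The 5 that rose, GBP3, GBP1, GBP2, GBP4 and GBP5, lie next to each other on chr1:89006680-89272860. GBP1 went from 16.9 to 98.5 in the authors' deposited table (log2 fold change 2.55, SE 0.35, DESeq2 adjusted p = 3.85e-11). GBP5 went from 98.2 to 274 (1.48, SE 0.19, adjusted p = 3.48e-12), and GBP4 from 292 to 417 (0.52, SE 0.17). GBP3 rose by 1.12 and GBP2 by 1.66, both from values under 35, in the authors' deposited table. GBP6 was listed at 3.3 and 2.2 and was not called. As paralogs these genes may share some reads.

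The interferon-stimulated response element was looked for as GAAA followed, after any 2 bases, by another GAAA, on either strand, in the first RefSeq promoter listed for each gene (250 bases before to 50 after the start, GRCh38.p14), which matched 13425 genes of the table. It was present in 413 of all promoters (3.08%), in 3.35% of those of genes that rose and 3.08% of those of genes that fell. On the interferon list 23 of 35 promoters held it (65.7%), 5 of 10 among members that rose and 18 of 24 among members not called. The windows of 3 members are shown, with the element in capitals, because these members rose and hold it before the start. They are GBP1 (chr1:89065318-89065343, plus strand), IFI27 (chr14:94110633-94110658, plus strand) and LGALS3BP (chr17:78979964-78979989, minus strand).
GBP1: agtaatatGAAACTGAAAgtacttcg
IFI27: gtttcctgGAAAATGAAAcctatctc
LGALS3BP: ggtttctgGAAATCGAAAgtagactc

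Against the other lines, 6 interferon list members had a higher log2 fold change in Jiyoye than in BL-41 and 2 a lower one. Against Namalwa 7 were higher. Over all genes the z test called 3.24% higher and 3.01% lower than in BL-41, and 1.66% higher and 1.08% lower than in Namalwa. IFITM2 was apart from both, at -0.26 (log2) in BL-41 and -0.06 in Namalwa, from the authors' deposited table (adjusted p = 0.00176 and 0.0131 for the differences). IRF9 rose in BL-41 as well, by 0.68, and its difference from BL-41 did not pass (adjusted p = 0.366), while that from Namalwa, at 0.09, did (adjusted p = 5.87e-05). DDX58 rose more in BL-41, where the authors' deposited table gives 1.78 (adjusted p = 0.00114 for the difference).

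**Figure D3:**
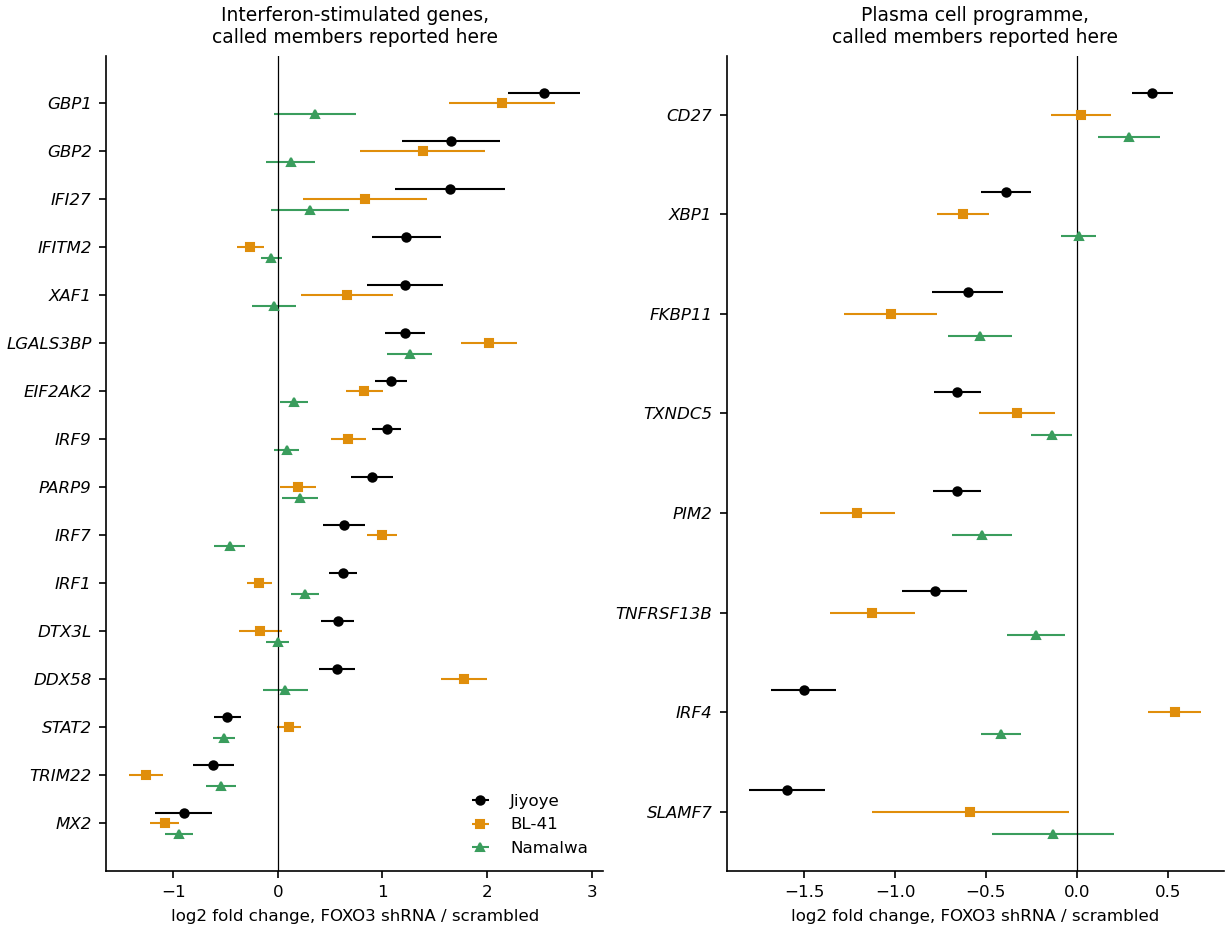
Log2 fold changes of FOXO3 shRNA over scrambled, with recovered SE as bars, for the interferon list (left) and plasma cell list (right) members that were called in Jiyoye and are reported here, in Jiyoye (black circles), BL-41 (orange squares) and Namalwa (green triangles). IFITM2 stands at 1.23 in Jiyoye, -0.26 in BL-41 and -0.06 in Namalwa, and IRF4 at -1.50 in Jiyoye, 0.54 in BL-41 and -0.42 in Namalwa.

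Genes of the plasma cell programme moved mostly the other way: 7 of 17 measured members fell (41.2%), 1 rose and the median log2 fold change was -0.30. The list fell in the other lines as well. In BL-41, 10 of 17 members fell and 1 rose (median -0.63), beside 14.2% of all genes down there. In Namalwa 7 of 17 fell and 0 rose (median -0.42), beside 3.81% of all genes down. IRF4, the factor that drives plasma cell fate and an EBV-inducible gene (chr6:391752-411443), fell from 9723 to 3433 in the authors' deposited table, a log2 fold change of -1.50 (SE 0.18, DESeq2 adjusted p = 1.64e-14). SLAMF7, a surface receptor of plasma cells, fell from 5556 to 1842 (-1.59, SE 0.21, adjusted p = 4.36e-12). XBP1, the factor that expands the secretory apparatus, fell from 4929 to 3761 (-0.39, SE 0.14), and TXNDC5 and FKBP11, which help proteins fold in the endoplasmic reticulum, by 0.66 and 0.60, as listed in the authors' deposited table. PIM2, a survival kinase, fell by 0.66 and TNFRSF13B, the receptor TACI, by 0.78. CD27, a receptor of memory B and plasma cells, rose from 1416 to 1889 (0.42, SE 0.11) in the authors' deposited table. The fall of IRF4 was apart from both other lines: it rose by 0.54 in BL-41 (adjusted p = 5.98e-15 for the difference) and fell by 0.42 in Namalwa (adjusted p = 0.000117). The fall of SLAMF7 passed the difference test from Namalwa (adjusted p = 0.0147) but not from BL-41 (adjusted p = 0.353).

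Transcription factors of B cell identity and the germinal centre were mixed, with 6 of 28 down, 3 up and a median of 0.13. ETS1 fell from 7743 to 3264 in the authors' deposited table (log2 fold change -1.25, SE 0.15, DESeq2 adjusted p = 4.23e-14). IKZF3, the Ikaros relative Aiolos, fell from 11739 to 6197 (-0.92, SE 0.14), and GCSAM, a germinal centre signalling adaptor, from 9334 to 4226 (-1.14, SE 0.17). POU2AF1, the B cell coactivator of octamer factors, fell by 0.74, SPIB by 0.69 and IRF8 by 0.44 in the authors' deposited table. IKZF1 rose by 0.43, ID2, an inhibitor of E proteins, by 0.58 and POU2F2 by 0.29. IKZF1 and IKZF3, related zinc finger factors, moved in opposite directions. IKZF3 was near 0 in BL-41 (0.05) and Namalwa (-0.03), and both differences passed (adjusted p = 0.000155 and 0.000181). BCL6, the master repressor of the germinal centre, went from 67.7 to 103 with a DESeq2 adjusted p = 0.0507 and was not called.

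At the B cell receptor both signalling chains rose. CD79B rose from 648 to 937 in the authors' deposited table (log2 fold change 0.53, SE 0.12, DESeq2 adjusted p = 0.000341), and CD79A from 1432 to 1833 (0.36, SE 0.13, adjusted p = 0.0399). BLNK, the adaptor that couples the receptor to downstream enzymes, fell from 4515 to 2323 (-0.96, SE 0.15), and SYK, the proximal kinase, from 270.0 to 173 (-0.64, SE 0.20) in the authors' deposited table. PIK3CD, the leukocyte PI3K catalytic subunit, rose by 0.61 and VAV1 by 0.38. Of the co-receptors CD81 rose by 0.57, while CD40 fell by 0.79 and CD53 by 0.64 in the authors' deposited table. The whole list of receptor and co-receptor genes had 5 of 29 up and 4 down, with a median of -0.10. The log2 fold change of CD79B was -0.84 in BL-41 and -0.13 in Namalwa. That in Jiyoye was higher than both by the z test (adjusted p = 3.38e-12 and 0.00623).

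Antigen presentation genes were called in both directions. Of 18 MHC class II genes 2 rose and 3 fell (27.8% called), and of 20 class I genes 3 rose and 3 fell (30% called), beside 25.5% of all genes with a mean of at least 100. HLA-DRB5 rose by 0.43, a value that close DRB paralogs make uncertain, and IFI30, the lysosomal thiol reductase, by 0.65 in the authors' deposited table. HLA-DMA and HLA-DOA, which edit peptide loading, fell by 0.48 and 0.46. TAPBP, the peptide loading bridge tapasin, rose from 3021 to 4628 in the authors' deposited table (0.62, SE 0.11, DESeq2 adjusted p = 2.74e-06), TAP1 by 0.37 and ERAP2 by 0.57, while ERAP1 fell by 0.50. By the z test 9 of the 18 class II genes had a higher log2 fold change in Jiyoye than in BL-41, and 1 a higher one than in Namalwa. Over all genes these shares were 3.24% and 1.66%. In BL-41, 15 of the 18 were called down and 1 up, with a median of -0.96, beside a median of -0.09 in Jiyoye. In Namalwa 3 were called down and 0 up, with a median of -0.22.

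Of 33 NF-kB genes and genes that EBV latency proteins induce, 6 rose and 7 fell. TRAF1, a signalling adaptor induced by the viral protein LMP1, fell from 2548 to 1196 in the authors' deposited table (log2 fold change -1.09, SE 0.16, DESeq2 adjusted p = 5.15e-10). CFLAR, an inhibitor of caspase-8 activation, fell from 7061 to 4060 (-0.80, SE 0.14), EBI3, a cytokine subunit, by 0.58 and BIRC3 by 0.39. FCER2, which codes for CD23, a surface marker of B cells activated by the virus, rose from 141 to 325 in the authors' deposited table (1.20, SE 0.18, adjusted p = 3.86e-09). BCL3 rose by 0.53 and the subunit RELA by 0.40. FCER2 had log2 fold changes of 0.16 in BL-41 and -0.46 in Namalwa, and Jiyoye was higher than both (adjusted p = 0.0167 and 2.63e-09). The log2 fold change of CFLAR was lower in Jiyoye than in both, at -0.09 and -0.08 there (z test adjusted p = 0.0042 and 0.00931).

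Genes of PI3K, AKT and mTOR signalling, which act upstream of FOXO proteins, had 11 of 42 members up (26.2%), 2 down and a median of 0.00. AKT1 rose from 2831 to 4002 in the authors' deposited table (log2 fold change 0.50, SE 0.11, DESeq2 adjusted p = 0.000123). The catalytic subunits PIK3CD and PIK3CB rose by 0.61 and 0.48, and PIK3CG fell by 0.56 in the authors' deposited table. INPP5D, the phosphatase SHIP that opposes PI3K, rose by 0.47, and RPS6KB1 and RRAGC, which act in growth control by mTOR, by 0.49 and 0.56. PDPK1, the kinase that activates AKT, fell by 0.54. Kinases and counteracting phosphatases thus both appear among the called genes. PIK3CD was 0.28 in BL-41 and -0.03 in Namalwa, and the difference passed only for Namalwa (adjusted p = 0.00165).

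Known targets of FOXO factors did not move together. Of 43 measured, 5 rose, 4 fell and 34 were not called, and the median was 0.03. The called share was 20.9%, beside 17.4% over all genes and 25.5% of genes with a mean of at least 100. Such a mean was reached by 34 of the 43. Of the catabolic targets ULK1, the kinase that starts autophagy, rose from 1103 to 2253 in the authors' deposited table (log2 fold change 1.03, SE 0.13, DESeq2 adjusted p = 2.55e-12). GABARAPL1, which builds autophagosomes, rose from 395 to 666 (0.75, SE 0.16), and TRIM63, a muscle ubiquitin ligase, from 9.0 to 24.0 (1.41, SE 0.45). BCL2L11, the death protein BIM, rose from 1788 to 2299 (0.36, SE 0.13) and PRDX3 by 0.36 in the authors' deposited table. TXNIP, which binds thioredoxin and restrains glucose uptake, fell from 2049 to 1200.1 (-0.77, SE 0.14, adjusted p = 1.83e-06). RBL2, a pocket protein of cell cycle exit, fell by 0.49, catalase (CAT) by 0.48 and TRADD by 0.70 in the authors' deposited table. None of 9 targets in signalling feedback and none of 5 in lymphocyte trafficking was called by DESeq2 (1 and 0 at an unadjusted p under 0.05). The log2 fold change of TXNIP was 0.21 in BL-41 and -0.11 in Namalwa. That in Jiyoye was lower than both by the z test (adjusted p = 1.9e-05 and 0.0102).

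The core motif of FOXO binding, GTAAACA on either strand, was found in 2.43% of the 13425 promoters, in 27 of 1164 promoters of genes that rose (2.32%) and in 26 of 1200 of genes that fell (2.17%). On the target list 5 of 36 promoters held it. The windows of the 2 called targets among them are printed with the motif in capitals, since one rose and the other fell: BCL2L11 at chr2:111120683-111120705 on the plus strand, 208 bases before the start, and TXNIP at chr1:145996689-145996711 on the minus strand, 109 bases before it, both from RefSeq (GRCh38.p14).
BCL2L11: ttactccgGTAAACAcgccaggg
TXNIP: ggctcctgGTAAACAaggaccgg

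DNA replication genes fell in part: 12 of 41 measured members fell (29.3%), 1 rose and the median log2 fold change was -0.23. The nucleotide enzymes led, with 4 of 6 down. RRM2, the regulated subunit of ribonucleotide reductase (chr2:10122568-10211010), fell from 2500.0 to 829.8 in the authors' deposited table, a log2 fold change of -1.59 (SE 0.19, DESeq2 adjusted p = 9.6e-15). RRM1, the other subunit, fell by 0.43 and thymidine kinase TK1 by 0.69. Of the helicase and its loading factors MCM7 fell from 4818 to 2796 (-0.78, SE 0.19), CDC45 by 0.78, GINS4 by 0.74, CDC6 by 0.56 and MCM10 by 0.56, while GINS1 rose by 0.53 in the authors' deposited table. Of the polymerases and ligases POLD3 fell by 0.67, POLA1 by 0.65 and LIG1 by 0.66. RRM2 fell less in Namalwa (-0.54, adjusted p = 0.00185 for the difference) and by 0.94 in BL-41 (adjusted p = 0.102). On the whole list 4 members had a lower log2 fold change in Jiyoye than in Namalwa by that test.

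Repair and cell cycle genes were called in both directions, and no more often than expressed genes in general, apart from a slightly higher share for repair. The called share was 26.3% for the repair list and 22.7% for mitosis and spindle. It was 20.8% for CDK inhibition and cell cycle entry and 16% for the MYC network. Where the mean reached 100, as for most of these members, 25.5% were called, and 17.4% over all genes. Of 38 genes of homologous recombination and Fanconi repair 7 fell and 3 rose (median -0.18), among them BRCA1, which fell from 1219.5 to 735 in the authors' deposited table (-0.73, SE 0.16, DESeq2 adjusted p = 7.72e-05), FANCL (-0.92), FANCI (-0.65) and ATM (-0.63). FANCE rose by 0.67. Of 44 mitosis and spindle genes 6 fell and 4 rose. KIF11, a spindle motor, fell by 0.62 and HMMR by 0.55, while the checkpoint kinase TTK rose by 0.60 in the authors' deposited table. Of 24 genes of CDK inhibition and entry into the cell cycle 4 rose and 1 fell. CDKN2D, the inhibitor p19, rose from 66.9 to 140.4 in the authors' deposited table (1.07, SE 0.25), CCND3 by 0.71 and CDK6 by 0.41. In the MYC network 2 of 25 rose and 2 fell. SRM, spermidine synthase and a MYC target, rose from 1516 to 3477 in the authors' deposited table (1.20, SE 0.20, adjusted p = 1.02e-07), and MNT, a MYC antagonist, by 0.65.

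Genes of glucose metabolism also fell in part: 10 of 29 genes of glycolysis and the pentose phosphate pathway fell (34.5%), 2 rose and the median was -0.31. TPI1, triosephosphate isomerase, fell from 16508 to 9320 in the authors' deposited table (log2 fold change -0.82, SE 0.14, DESeq2 adjusted p = 5.38e-07). ENO1 fell from 51277 to 34454 (-0.57, SE 0.18), PGK1 by 0.61, LDHA by 0.51, GAPDH by 0.47, PKM by 0.42 and PFKL by 0.33. Of the pentose phosphate branch PGLS fell by 0.92 and RPE by 0.60, while TKT and RPIA each rose by 0.48 in the authors' deposited table. Of 33 genes of the TCA cycle and fatty acid oxidation 6 fell, led by ACADVL (-0.59), and none rose; at an unadjusted p under 0.05, 2 were above 0 and 8 below. Of 76 nuclear genes of oxidative phosphorylation 6 rose and 6 fell (15.8% called, beside 25.5% of genes with a mean of at least 100).

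Genes of amino acid supply fell in part. In the integrated stress response list 6 of 17 genes of amino acid synthesis and uptake fell by DESeq2's test and none rose (at an unadjusted p under 0.05, 8 were below 0 and 0 above). ASNS, asparagine synthetase, fell from 4700.4 to 2609 in the authors' deposited table (-0.85, SE 0.17, DESeq2 adjusted p = 1.58e-05). PSAT1, PHGDH and PSPH, the serine pathway, fell by 0.75, 0.64 and 0.47, CTH by 0.69 and the transporter SLC7A5 by 0.52. Of the kinases and factors of the response 4 of 11 rose, EIF2AK2, EIF2AK3 (0.43), EIF2AK1 (0.27) and CEBPB (0.70) in the authors' deposited table. Of 31 genes of the unfolded protein response and the endoplasmic reticulum 5 fell and 2 rose, and the chaperones calnexin (CANX) and calreticulin (CALR) fell by 0.46 and 0.41.

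Autophagy and lysosome genes were called often and in both directions, with 12 of 50 up (24%), 9 down (18%) and a median of 0.10. Besides ULK1, the transcription factors TFEB and TFE3, which control lysosome genes, rose by 0.65 and 0.44, as listed in the authors' deposited table. TFEB went from 670.2 to 1052 (SE 0.12, DESeq2 adjusted p = 3.58e-06). The hydrolases cathepsin Z (CTSZ) and cathepsin D (CTSD) rose by 0.86 and 0.65 and LAMP1 by 0.48, while GLA, alpha-galactosidase, fell from 538 to 201 (-1.42, SE 0.20, adjusted p = 5.06e-11) and GUSB by 0.75 in the authors' deposited table. The initiation genes ATG9A and WIPI2 rose by 0.72 and 0.58 and ATG7 and BECN1 fell by 0.81 and 0.42. Iron storage rose with FTH1 (46720.2 to 76524, 0.71, SE 0.13) and FTL (0.49) in the authors' deposited table. Of 29 antioxidant genes 6 rose and 2 fell, GPX4 rising by 0.64 and KEAP1 by 0.47.

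In the machinery of cell death, 4 of 17 BCL2 family genes rose and 1 fell. MCL1, a survival protein, fell from 8682 to 5678 in the authors' deposited table (log2 fold change -0.61, SE 0.14, DESeq2 adjusted p = 0.000127). BCL2L1, also a survival member, rose from 1823 to 2681 (0.56, SE 0.12, DESeq2 adjusted p = 4.26e-05). The executioner BAK1 rose by 0.43 and BMF by 0.39, beside BCL2L11. CASP8, the initiator caspase of death receptors, rose from 323 to 613 (0.93, SE 0.16, adjusted p = 6.57e-07), in the same libraries in which its inhibitor CFLAR fell. Of 30 p53 targets 3 fell, TP53I3 (-0.82), DDB2 (-0.72) and FDXR (-0.37) in the authors' deposited table, and none rose. The share of 10% down stands beside 8.7% over all genes. At an unadjusted p under 0.05, 3 of the targets were above 0 and 4 below.

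Of 78 cytosolic ribosomal proteins 4 rose and 1 fell, with a median of 0.14, and RPL17 went from 16847 to 24875 in the authors' deposited table (0.56, SE 0.10). Of 74 mitochondrial ribosomal proteins 8 rose and 5 fell. MRPL1 fell from 354 to 167 in the authors' deposited table (-1.09, SE 0.20), a lower log2 fold change than in BL-41 (0.40) and Namalwa (0.16). Of 65 core spliceosome genes 8 fell and 6 rose: besides SNRPB these falls were all SR and hnRNP proteins, 7 of 26, such as SRSF6 (-0.71), SRSF5 (-0.66) and HNRNPA1 (-0.65), while SNRPA1 rose by 1.03 in the authors' deposited table. Of 31 proteasome genes 4 rose and none fell. At an unadjusted p under 0.05, 8 were above 0 and 1 below. The called share was 6.41% for cytosolic and 17.6% for mitochondrial ribosomal proteins, 21.5% for spliceosome genes and 12.9% for proteasome genes. All members of these lists had a mean of at least 100, and 25.5% of all genes with such a mean were called. In cholesterol and fatty acid synthesis SREBF2, its master activator, rose from 6524 to 9952 (0.61, SE 0.12, DESeq2 adjusted p = 5.31e-06) in the authors' deposited table. On that list 4 of 32 genes rose and 1 fell (15.6% called).

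Jiyoye shared many calls with the other lines. Of 2878 genes called in Jiyoye and tested in BL-41, 1486 were called there in the same direction (51.6% of the Jiyoye calls and 32.5% of the 4571 BL-41 calls) and 74 in the opposite direction. Of 2848 tested in Namalwa, 567 were called alike (19.9% of the Jiyoye calls and 57.7% of the 983 Namalwa calls) and 9 oppositely. Across genes whose mean reached 100 in both lines of a pair, the Pearson correlation of log2 fold changes was 0.62 over 9241 genes with BL-41 and 0.60 over 9096 genes with Namalwa, as a description, since genes are not independent replicates and the lines share the vectors and the processing. In all 3 lines 478 genes were called alike, 215 up and 263 down.

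The difference itself was tested gene by gene. The log2 fold change in Jiyoye differed from that in BL-41 for 963 of 15419 genes (6.25%; 499 higher and 464 lower) and from that in Namalwa for 410 of 14933 (2.75%; 248 higher and 162 lower). With every SE made 25% larger these counts were 217 and 64. In total 142 genes differed from both lines in the same direction, 83 higher and 59 lower, of which 105 reached a mean of 100 in every line. Of 2832 Jiyoye calls tested in all 3 lines, 1182 were called in neither other line, and 88 of those differed from both, so for most of them a call in Jiyoye alone does not show a difference.

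**Figure D4:**
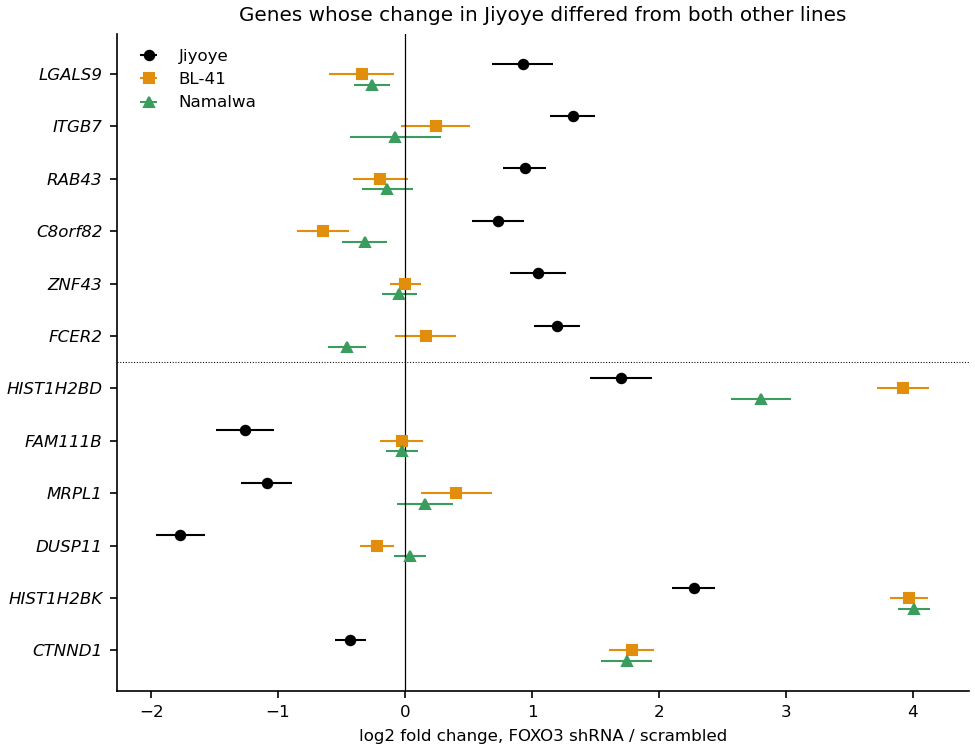
Log2 fold changes with recovered SE as bars in Jiyoye (black circles), BL-41 (orange squares) and Namalwa (green triangles) for the 6 genes furthest below and the 6 furthest above both other lines among genes whose mean reached 100 in each line, separated by the dotted line. CTNND1 lies at -0.43 in Jiyoye against 1.78 and 1.75, and LGALS9 at 0.93 against -0.34 and -0.26.

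Among those whose mean reached 100 in every line, the largest difference was in CTNND1, which codes for p120 catenin, a partner of cadherins (chr11:57761802-57819540). It fell from 2957 to 2194 in Jiyoye in the authors' deposited table (log2 fold change -0.43, SE 0.12, DESeq2 adjusted p = 0.00457) and rose by 1.78 in BL-41 and 1.75 in Namalwa (adjusted p = 1.68e-20 and 2.84e-16 for the differences). DUSP11 fell by 1.77 beside -0.22 and 0.04, and FAM111B, a protease, fell from 605 to 252 (-1.26, SE 0.23) beside -0.03 and -0.02, as listed in the authors' deposited table. A higher log2 fold change than in both lines was seen for LGALS9, galectin-9 (0.93), the gut-homing integrin chain ITGB7 (1.32), RAB43 (0.94), C8orf82 (0.73), ZNF43 (1.05) and FCER2 (1.20). ITGB7 rose from 279 to 697 in Jiyoye in the authors' deposited table and stood at 0.24 in BL-41 and -0.08 in Namalwa (adjusted p = 0.0226 and 0.0239). With every SE made 25% larger only CTNND1, HIST1H2BK, DUSP11 and FAM111B of these 12 genes stayed past the test against both lines.

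Some called genes sat beside each other on chromosomes, but most did not. No adjacent gene was called alike for 1173 genes that fell and 1153 that rose, while 591 called genes had such a neighbour. Over all genes 8.7% fell and 8.69% rose, and the number of such neighbours to be met without any grouping was not worked out. Of 16749 genes with a RefSeq position, runs of at least 4 adjacent genes called in the same direction numbered 8, and they are named here after their values were seen. Besides the guanylate-binding proteins, the secretoglobin genes SCGB2A1, SCGB1D2 and SCGB1D4 fell together with their neighbour ASRGL1 (chr11:62208673-62401431). SCGB1D2, a small secreted protein, went from 103 to 15.7 in the authors' deposited table (log2 fold change -2.71, SE 0.41, DESeq2 adjusted p = 3.28e-09). On chromosome 14, NGB, POMT2, GSTZ1, TMED8 and SAMD15 fell by 0.90, 0.69, 0.88, 0.37 and 1.33, as listed in the authors' deposited table (chr14:77265483-77392163). TIMD4, HAVCR1 and HAVCR2, the TIM family of phosphatidylserine receptors, fell with MED7 (chr5:156919292-157142865), by 0.99, 0.55, 0.92 and 0.47, as listed in the authors' deposited table. HAVCR2 was called up in BL-41, and the difference passed (adjusted p = 0.00011).

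**Figure D5:**
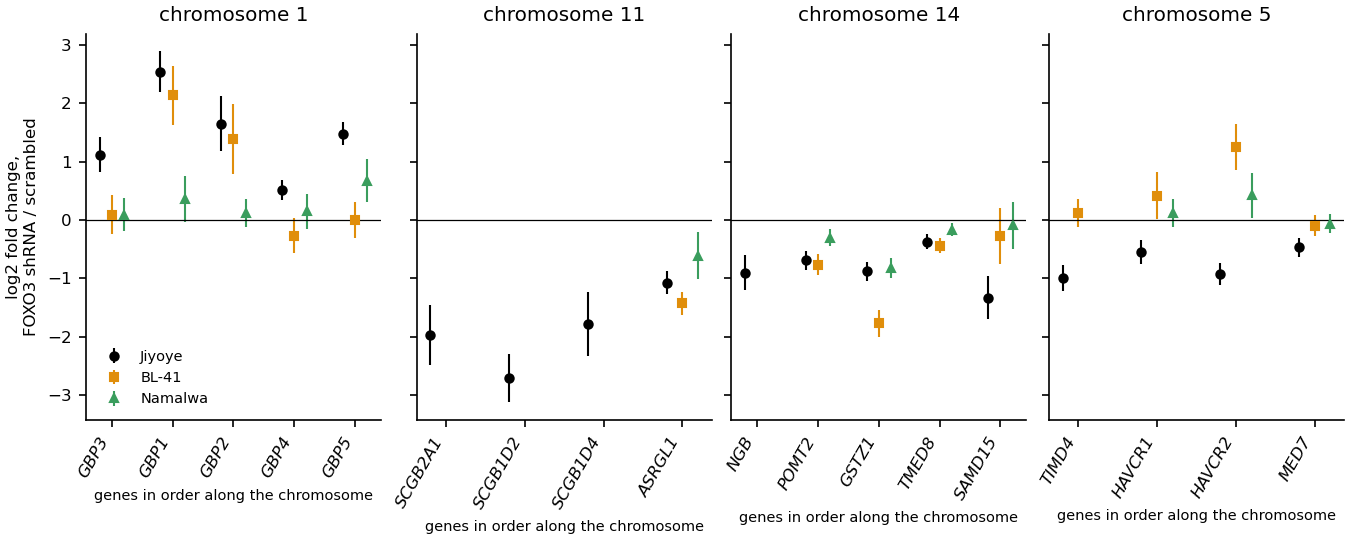
Log2 fold changes with recovered SE as bars for 4 runs of adjacent genes called alike in Jiyoye, in order along the chromosome, in Jiyoye (black circles), BL-41 (orange squares) and Namalwa (green triangles). All 5 guanylate-binding proteins of the run lie above 0 in Jiyoye, and the secretoglobin run below it, where SCGB genes and NGB have no value from the other lines.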

How the data were processed

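Messenger RNA was measured by sequencing of oligo-dT enriched libraries, per the labels' protocols. Per the series' design text, the authors filtered reads with SOAPnuke, mapped them to hg38 with Bowtie2, quantified genes with RSEM and tested them with DESeq2; the versions are not given in the sources used here. The authors deposited 1 signal value per group, per the file headers. No header states its normalization; from the values, it is on the scale of counts divided by library size factors, and the ratio of both values equals the fold change. The log2 fold change was also deposited by the authors, as were the p-values and adjusted p-values of their DESeq2 test. No table held values per library, so the planned count test was not run.

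Standard errors are log2 fold changes divided by the z value of their p. Size factors were read from 718 genes with a single read, and ran from 0.985 to 1.08 in the scrambled group and from 0.963 to 0.982 in the FOXO3 shRNA group. Differences between lines were tested with a two-sided z test on log2 fold changes and Benjamini-Hochberg adjustment over all genes tested in both lines. The fold changes are moderated towards 0 within each line's own comparison, and the degree may differ between lines. For genes with a mean under 10 the median SE was 0.452 in Jiyoye, 0.508 in BL-41 and 0.254 in Namalwa. The part of this in the differences was not tested. The z test was tried on simulated fold changes with known differences and noise set by the recovered SE. That simulation takes these SE as right, so it cannot show whether the test holds for the deposited fold changes. No set test was made: lists are described by counts and medians.

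The rule for named genes took every FOXO gene, the 12 called genes that rose most and the 12 that fell most at a mean level of 100 or more, for each list the 4 members with the smallest adjusted p and the first in the opposite direction, and 6 genes each way that differed from both other lines, 198 in all. Other called list members were added after their values were seen. Some genes on the lists count in their totals but are not reported here by name. Members and lists were chosen with earlier results of these data known. Alternatives were other adjustments, level filters, centring, a larger SE and another motif or promoter start. Gene positions and promoters are from RefSeq (GRCh38.p14). Calculations used Python 3.11.15 with pandas 2.3.3, numpy 2.4.6, matplotlib 3.10.9 and scipy 1.17.1.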

Additional observations from a re-analysis of the deposited data

Results flagged for a closer look

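Of 198 genes named by rule, the log2 fold change in Jiyoye differed from that in BL-41 for 44 by the z test of the difference. It differed from that in Namalwa for 54, and 20 differed from both in the same direction. Over all genes tested the shares were 6.25% for BL-41 and 2.75% for Namalwa. The rule favours large changes and small adjusted p, and 12 of the 20 met a part of it that asks for a pass of this z test. These counts are therefore no result about the named genes. For these 20 the smaller of the 2 differences is given. Lower in Jiyoye were CTNND1 by -2.18, HIST1H2BK by -1.70, DUSP11 by -1.55, MRPL1 by -1.24, FAM111B by -1.24, HIST1H2BD by -1.10, IRF4 by -1.09, IKZF3 by -0.89, CFLAR by -0.70 and TXNIP by -0.66. Higher in Jiyoye were LGALS9 by 1.19, ITGB7 by 1.08, RAB43 by 1.08, C8orf82 by 1.05, ZNF43 by 1.05, FCER2 by 1.03, FANCE by 0.74, TAPBP by 0.74, CD79B by 0.66 and SREBF2 by 0.55. FOXO3 itself lay 0.80 above its value in Namalwa, a difference that also passed. The part of the hairpin's own target in the other differences was not tested.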

How the results depend on the processing

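No paired analysis was possible because the tables give 1 value per group and no value per library; for the same reason no library could be left out, and edgeR, TMM scaling and count filters were not run. Adjusting only over genes whose mean reached 10 or 100, or centring on the median, kept the counts of called genes within 1.5 times the reported ones. The Benjamini-Yekutieli adjustment, which allows any dependence between genes, left 1567 of 2919 genes called, 789 up and 778 down. Making every SE 25% larger left 1508, 764 up and 744 down, and reduced the genes that differed from BL-41 to 217 and those that differed from Namalwa to 64. These are stricter rules by construction. None of the genes followed singly turned its sign, but the alternatives could hardly show such a turn. Only centring altered the fold changes, and it shifted each by 0.004. The balance of calls, near even throughout, went from slightly more falls (1458 up, 1461 down) to slightly more rises under both of these stricter rules. Of 237 genes followed singly, 50 lost their call under the first of these rules, 59 under the second and 2 on centring. FOXO3 was called under none of them. The shorter motif TAAACA was present in 7.89% of all promoters, 7.04% of those of genes that rose and 6.83% of those of genes that fell. With any start listed for a gene, an alternative chosen after seeing the data, GTAAACA was present in 3.64%, 4.30% and 3.42%, so that its share in genes that rose lay above that of all promoters, and below it with the first start (2.32% against 2.43%). Restricting lists to members with a mean of at least 100 cut the rising histone genes from 12 to 6 (13 to 7 with the processing factor LSM10) and the rising interferon genes from 14 to 9. Depth limits low genes most: the median SE was 0.452 for genes with a mean under 10, against 0.149 at 100 or more.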

Other observations

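Of 22 heat shock genes 4 rose by DESeq2's test and 0 fell (5 above 0 and 0 below at an unadjusted p under 0.05), led in the authors' deposited table by the small chaperone HSPB1, which went from 1028 to 1638 (log2 fold change 0.67, SE 0.16), with the factor HSF1 at 0.35. Of 30 immediate early genes 3 rose, JUND by 0.78, IER5 by 0.46 and DUSP6, from 4.6 to 12.7, by 1.46 in the authors' deposited table, and 0 fell (4 above 0 and 1 below at an unadjusted p under 0.05); this share of 10% up stands beside 8.69% over all genes. Of 42 chromatin regulators 6 fell and 4 rose (11 below 0 and 11 above at an unadjusted p under 0.05). The DNA methylation genes UHRF1 and DNMT1 fell by 0.68 and 0.45, the methyltransferase NSD2 by 0.47 and the remodeller ATPase SMARCA2 by 0.59, while ARID1A and CREBBP each rose by 0.41 (authors' deposited table). The log2 fold change of UHRF1 was also lower than in BL-41 and in Namalwa, at 0.19 and 0.17 there (z test adjusted p = 0.0231 and 0.0295 for the differences). In B cell migration ITGB1 rose by 0.50 and the signalling inhibitor RGS2 fell from 711 to 383 (-0.89, SE 0.24) in the authors' deposited table.

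KLRK1, the receptor NKG2D best known from NK and T cells, was on no list and is named after its values were seen. It went from 9.9 to 60.9 in Jiyoye in the authors' deposited table (log2 fold change 2.62, SE 0.39, DESeq2 adjusted p = 1.62e-09). In BL-41 it fell from 1586 to 786 (-1.01), and in Namalwa it stood at 1059 and 1079 (0.03). Its log2 fold change in Jiyoye was higher than in both by the z test (adjusted p = 5.98e-15 and 8.18e-07). Its values in Jiyoye were lower than in both lines with either hairpin.

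Calls were spread unevenly over chromosomes among genes with a mean of at least 100. On chromosome 19, 21.0% of 765 genes rose and 9.15% fell, and on chromosome 22, 20.2% of 253 rose and 8.30% fell, beside 12.7% and 12.8% over all such genes. On the X chromosome 6.59% of 334 genes rose and 19.2% fell. By transcript length, the genes in the shortest of 5 classes (349 to 1635 bases) had a median log2 fold change of 0.06, and the longest (4972 to 45932 bases) of -0.03. These shares are descriptions with no test.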
